A study of Mus musculus with 12 samples.

Results

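The myogenic regulatory factors are the 4 genes *Myod1*, *Myf5*, *Myf6* and *Myog*, found by Ensembl identifier among the 46983 genes of the deposited FPKM table. All 4 were found, and each reached 0.1 FPKM in at least 3 of the 12 libraries, as did 18023 genes in all. FPKM scales the sequenced fragments of a gene by its transcript length and by the fragments mapped in the library, so levels were set side by side between genes and libraries. It takes no account of a change in the make-up of the RNA between libraries, and median-ratio scaling is given among the alternatives.

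The samples were C2C12 cells, a mouse myoblast line that leaves the cell cycle and fuses into myotubes when it differentiates. The WT cells were the PB-IP vector group and were labelled wild type, and the PPARγ/+ cells carried the PPARγ coding sequence in a PiggyBac vector and had been selected with puromycin as positive clones. RNA was sequenced from undifferentiated cells (0d) and from cells on day 5 of differentiation (5d). This made 4 groups of 3 libraries, named WT_0d, WT_5d, PPARγ/+_0d and PPARγ/+_5d. The series text calls the PPARγ cells inducible and the controls uninduced, while the methods describe a stably transposed line and name no inducer. The driving promoter and the number of clones are not given in the sources used here, so a difference between the cell types cannot be told apart from a difference between selected lines.

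The 4 factors are basic helix-loop-helix proteins that pair with E proteins and bind the E-box, a short DNA motif in the control regions of muscle genes. *Myf5* and *Myod1* commit cells to the muscle lineage and are expressed in proliferating myoblasts, *Myog* (myogenin) turns on as myoblasts leave the cell cycle and is needed for the fusion of myotubes, and *Myf6* (MRF4) is mostly a gene of later muscle fibres. Id proteins and other helix-loop-helix repressors compete for the same partners. PPARγ is a nuclear receptor known for driving the formation of fat cells.

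On GRCm38, *Myod1* (ENSMUSG00000009471) lies at chr7:46376474-46379099 on the plus strand and *Myog* (ENSMUSG00000026459) at chr1:134289989-134292548 on the plus strand. *Myf5* (ENSMUSG00000000435, chr10:107482908-107486134) and *Myf6* (ENSMUSG00000035923, chr10:107492853-107494737) are neighbours on the minus strand, 6718 bp apart. Each is annotated with 3 exons and overlaps no other gene. The coding sequences of any 2 of the factors matched at 59.7 to 68.2% of aligned bases, and the longest run shared by 2 of them was 11 to 26 bases. A stretch of 60 coding bases in which the family is most alike lets the members be seen side by side, with the 44 bases that all 4 share in capitals, at chr7:46377086-46377145 for *Myod1*, chr10:107485537-107485596 for *Myf5*, chr10:107494280-107494339 for *Myf6* and chr1:134290385-134290444 for *Myog*.
Myod1: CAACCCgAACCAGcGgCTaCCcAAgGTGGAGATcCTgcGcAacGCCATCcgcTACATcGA
Myf5: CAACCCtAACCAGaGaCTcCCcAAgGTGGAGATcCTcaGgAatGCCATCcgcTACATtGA
Myf6: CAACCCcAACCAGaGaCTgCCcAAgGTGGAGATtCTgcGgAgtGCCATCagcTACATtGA
Myog: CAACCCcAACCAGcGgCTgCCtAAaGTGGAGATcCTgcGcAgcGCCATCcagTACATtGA

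The promoters of *Myog* and *Myf5* are printed because the RefSeq table of promoters (GRCm38.p6) lists these 2 of the 4 members, which are the early and the late factor with called changes in opposite directions in WT cells. The 235 bases from 250 to 16 bases before the RefSeq start are given for *Myog* (chr1:134289754-134289988, plus strand) and *Myf5* (chr10:107486150-107486384, minus strand). Both strands were searched for the E-box CANNTG, the MEF3 motif TCAGGTT and TATATTTA, the core of a MEF2 motif, and matches are in capitals.
Myog: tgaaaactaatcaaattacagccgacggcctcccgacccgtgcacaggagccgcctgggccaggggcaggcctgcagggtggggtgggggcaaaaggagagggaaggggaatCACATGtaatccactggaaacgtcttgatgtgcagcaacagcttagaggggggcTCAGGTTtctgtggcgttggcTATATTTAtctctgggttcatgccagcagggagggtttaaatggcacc
Myf5: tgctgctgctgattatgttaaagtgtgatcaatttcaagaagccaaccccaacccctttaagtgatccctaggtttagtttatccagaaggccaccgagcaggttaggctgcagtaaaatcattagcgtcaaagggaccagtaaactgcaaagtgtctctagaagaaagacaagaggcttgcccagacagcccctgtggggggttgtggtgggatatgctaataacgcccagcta
In *Myog* an E-box match CACATG began 138 bases before the start, a MEF3 match 84 bases before it and a MEF2 core match 63 bases before it, with no overlap between them. No match was present in the *Myf5* window, which says only that these letters are not in it. Of 32851 promoter windows of the same length, 64.1% held a CANNTG, 3.29% the MEF3 motif and 1.07% (353 windows) the MEF2 core. The MEF2 core was cut from a longer motif already seen to match in *Myog*, so its match there was known beforehand and is not read against that share.

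The libraries held 18581300 to 26073154 mapped fragments each. *Pparg*, the overexpressed gene, lay at 5.10 to 7.56 FPKM in WT_0d, 3.12 to 4.59 in WT_5d, 28.0 to 46.4 in PPARγ/+_0d and 40.1 to 92.7 in PPARγ/+_5d, so that every library followed its label. Fragments of the transgene and of the endogenous gene cannot be told apart in these values. The myoblast markers *Des* (desmin) and *Cdh15* (M-cadherin) were expressed in all groups, at means of 52.5 to 390.4 and 7.71 to 49.6 FPKM. Some libraries stood apart in muscle genes. Among 45 tested target genes of the myogenic factors, WT_0d replicate 2 was the highest library of its group for 42 (26.2% of all genes), and WT_5d replicate 3 the lowest of its group for 44 (30.6% of all genes). They were not the only ones. WT_5d replicate 1 was the highest for 41 (30.0% of all genes) and PPARγ/+_0d replicate 3 for 34 (30.8%). WT_0d replicate 3 was the lowest for 35 (31.2%) and PPARγ/+_0d replicate 1 for 31 (40.2%). Results that moved most with WT_0d replicate 2 or WT_5d replicate 3 are also given without them. Summed FPKM of 15 adipocyte markers was 22.3 to 41 in WT cells on both days, 50.8 to 67.3 in PPARγ/+_0d and 112 to 242 in PPARγ/+_5d, with *Lep* at 0 in all libraries. The part of adipocyte-like cells in the levels of the myogenic factors was not tested, and in bulk RNA fewer cells of a type and less RNA per cell cannot be told apart.

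*Myf5*, the first of the determination factors to be used in muscle development, was highest in undifferentiated WT cells, where it fell with differentiation, and its change differed between the cell types. In WT_0d it measured 11.3, 13.2 and 11.6 FPKM (12 ± 0.988, SD, n = 3). In WT_5d it was 5.96, 3.53 and 3.79 FPKM (4.43 ± 1.33). In PPARγ/+_0d it was 3.66, 4.25 and 3.96 FPKM (3.96 ± 0.297). In PPARγ/+_5d it was 5.58, 6.27 and 8.47 FPKM (6.78 ± 1.51). The 3 WT_0d libraries thus lay above all 9 others, and PPARγ/+_0d lay within the range of WT_5d.

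**Figure D1:**
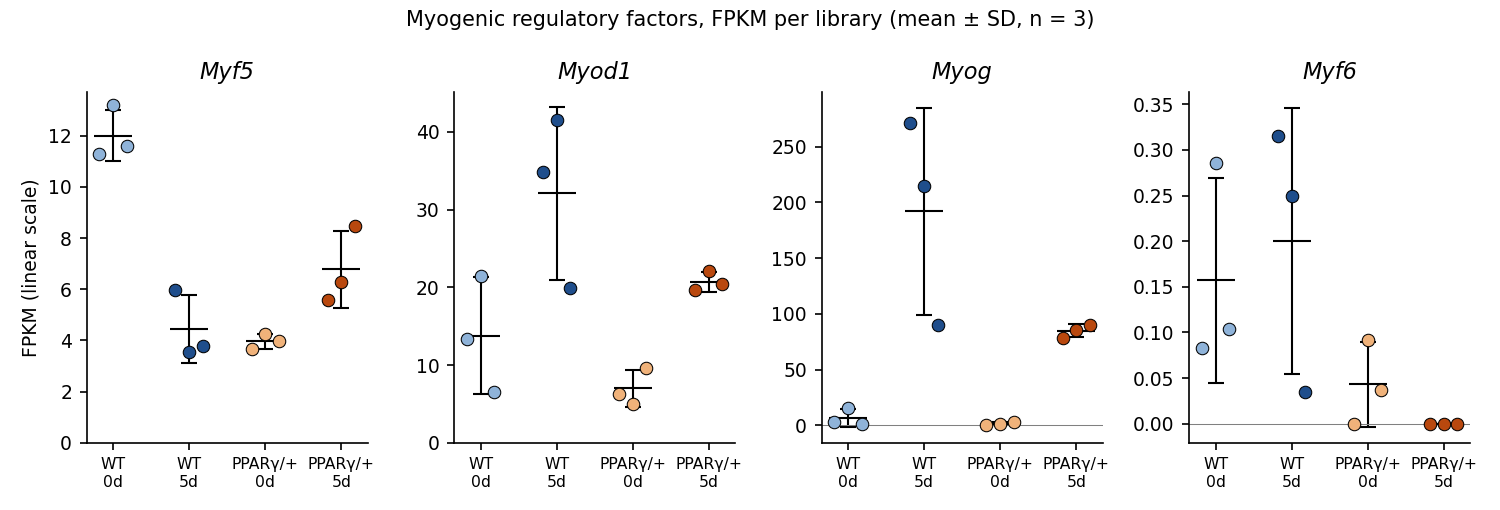
FPKM of the 4 myogenic regulatory factors in each library on linear axes with a separate scale per gene, with points for the 3 libraries of a group, a long bar for the mean and whiskers for the SD. *Myf5* was highest in WT_0d (12 ± 0.988), *Myog* reached 90.0 to 271 FPKM in WT_5d and 78.8 to 90.3 in PPARγ/+_5d, and *Myf6* reached at most 0.315 FPKM.

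From 0d to 5d, *Myf5* fell by 1.46 on the log2 scale in WT cells (SE 0.20, limma adjusted p = 0.00268), without overlap between the days. In PPARγ/+ cells it was 0.74 higher on 5d (SE 0.16, limma adjusted p = 0.00791), again without overlap, but this was under the 2-fold change that the call required. The difference between these 2 changes was 2.20 (SE 0.27, 95% interval 1.60 to 2.79) and passed the interaction test over all 12 libraries (limma adjusted p = 0.00844). Of all genes tested, 0.760% (137 genes) passed that test, 0.583% with a difference above 0 and 0.178% below it, and *Myf5* ranked 11th of 18023 by p. A lower level on 5d in WT cells together with a higher one in PPARγ/+ cells, each at an unadjusted p of at most 0.05, was found for 41 genes, or 0.227%. The interaction held in all 22 alternative analyses, with a difference of 1.92 to 2.43 and adjusted p from 3.62e-04 to 0.0315, those without WT_0d replicate 2 and without WT_5d replicate 3 included.

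Between the cell types on 0d, *Myf5* was lower in PPARγ/+ cells by 1.58 on the log2 scale, or 2.99-fold (SE 0.09, limma adjusted p = 0.00486). With the replicate number as a block the limma adjusted p was 0.0878, and 0 genes were called (2755 had an unadjusted p of at most 0.05). *Myf5* was the 1 member called without the block, where 1.59% of all genes were called, 1.23% of all genes being lower and 0.361% higher in PPARγ/+ cells. On 5d it was 0.62 higher in PPARγ/+ cells (SE 0.25, 95% interval 0.02 to 1.22), which did not pass adjustment (limma adjusted p = 0.385), and the groups overlapped. The exact permutation test, which with 3 against 3 libraries cannot go below 0.10, gave two-sided p = 0.10 for *Myf5* in each comparison of the days and for the cell types on 0d, and p = 0.20 for the cell types on 5d.

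*Myod1*, the determination factor that can convert other cells to muscle, was higher on 5d in both cell types. In WT_0d it measured 13.3, 21.5 and 6.57 FPKM (13.8 ± 7.47, n = 3). In WT_5d it was 34.9, 41.5 and 19.9 FPKM (32.1 ± 11.1). The days overlapped in WT cells, since WT_0d replicate 2 lay above WT_5d replicate 3. In PPARγ/+_0d it was 6.30, 5.03 and 9.68 FPKM (7.0 ± 2.41). In PPARγ/+_5d it was 19.6, 22.1 and 20.4 FPKM (20.7 ± 1.28), above every PPARγ/+_0d library.

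The change of *Myod1* from 0d to 5d was 1.31 in WT cells (log2, SE 0.47) and was called at an unadjusted limma p of 0.0293, while its adjusted p was 0.0708. It was 1.60 in PPARγ/+ cells (SE 0.22, limma adjusted p = 0.00127). The WT call was lost when WT_0d replicate 1, WT_0d replicate 3, WT_5d replicate 1 or WT_5d replicate 2 was left out, with a change of 0.86 to 1.36. With both WT_0d replicate 2 and WT_5d replicate 3 left out, the change was 2.01. The 2 changes differed by 0.30 (95% interval -0.92 to 1.52, limma adjusted p = 0.877), and by -0.41 with those 2 libraries left out. *Myod1* was 0.86 lower in PPARγ/+ cells than in WT cells on 0d (log2, 95% interval -1.99 to 0.27, limma adjusted p = 0.335) and 0.56 lower on 5d (95% interval -1.22 to 0.10, limma adjusted p = 0.438), and the groups overlapped on both days. Without WT_0d replicate 2 the 0d difference was -0.46, and without WT_0d replicate 3 it was -1.31. Without WT_5d replicate 3 the 5d difference was -0.87 (limma adjusted p = 0.0146, under the 2-fold change required), and without WT_5d replicate 2 it was -0.34. Each library left out for these differences was the highest or lowest of its group, so the direction of each shift was fixed. Neither difference passed the test with all libraries, and intervals this wide hold both no change and a change of over 2-fold.

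*Myog*, the differentiation factor, changed most of the family. In WT_0d it measured 2.69, 15.7 and 1.47 FPKM (6.62 ± 7.89, n = 3). In WT_5d it was 271, 215 and 90.0 FPKM (192 ± 92.7). In PPARγ/+_0d it was 0.603, 1.13 and 3.22 FPKM (1.65 ± 1.38). In PPARγ/+_5d it was 78.8, 85.9 and 90.3 FPKM (85 ± 5.80). The days did not overlap in either cell type, and by its mean *Myog* stood 166th among the 18023 genes in WT_5d and 428th in PPARγ/+_5d. WT_0d replicate 2 was the highest of its group and WT_5d replicate 3 the lowest of its group, where it lay within the PPARγ/+_5d range.

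*Myog* rose by 5.40 on the log2 scale in WT cells (42.3-fold on the log2(FPKM + 0.1) scale, SE 0.88, limma adjusted p = 0.00473) and by 5.90 in PPARγ/+ cells (59.8-fold, SE 0.51, limma adjusted p = 2.00e-04). The interaction was 0.50 with a 95% interval of -1.92 to 2.92 (limma adjusted p = 0.900), and it was -0.94 with both WT_0d replicate 2 and WT_5d replicate 3 left out. Between the cell types, *Myog* was 1.53 lower in PPARγ/+ cells on 0d (95% interval -3.93 to 0.87, limma adjusted p = 0.410), and the difference was -0.56 without WT_0d replicate 2 and -2.22 without WT_0d replicate 3. On 5d it was 1.03 lower (95% interval -2.02 to -0.04, limma adjusted p = 0.382). Without WT_5d replicate 3 the 5d difference was -1.51 and passed the test (limma adjusted p = 0.00782), so whether *Myog* is called lower in differentiated PPARγ/+ cells rests on that library. As it was the lowest of WT_5d for *Myog*, leaving it out can only widen the difference and carries no separate evidence.

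**Figure D2:**
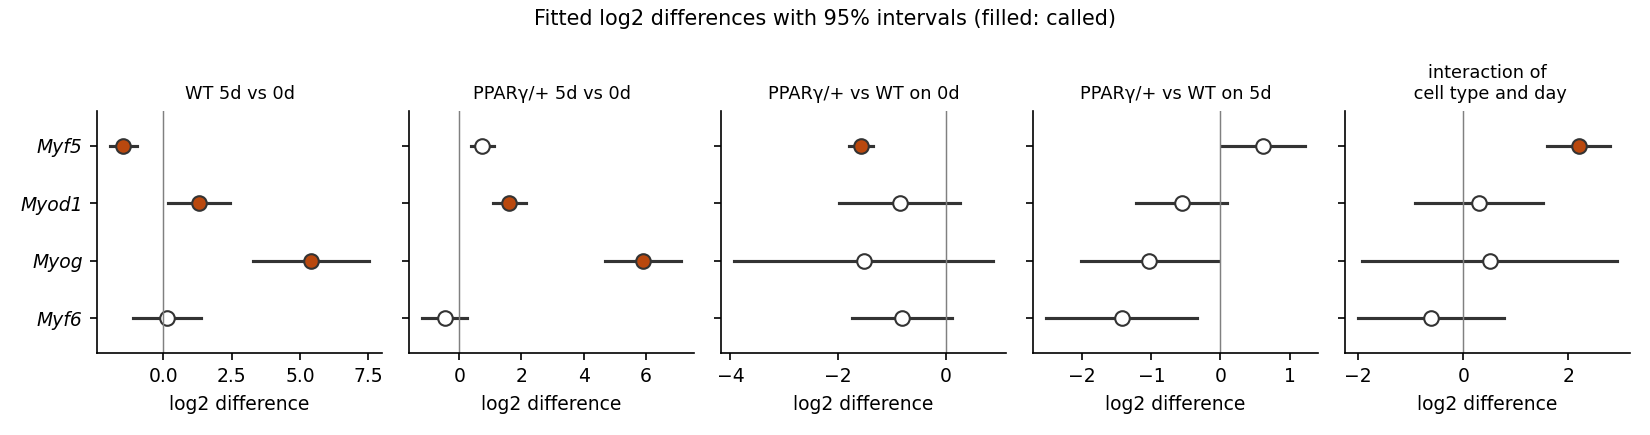
Fitted log2 differences of the 4 factors (points) with 95% intervals (lines) in the 5 comparisons, each panel with its own axis, filled where called. *Myf5* was called in the interaction (2.20) while the intervals of *Myod1* and *Myog* there included 0. The *Myf6* points between the cell types and in the interaction are shown but not read, since it passed the filter through WT libraries alone.

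*Myf6* was close to the limit of detection. Recovered fragments numbered 2, 9 and 3 in WT_0d, 10, 6 and 1 in WT_5d, 0, 3 and 1 in PPARγ/+_0d, and 0, 0 and 0 in PPARγ/+_5d. These are 0.157 ± 0.112, 0.200 ± 0.146 and 0.0430 ± 0.0464 FPKM in the first 3 groups (n = 3), and a count of 0 allows up to 3 fragments in a library. With a floor of 3 fragments in each library, the listed mean of *Myf6* in WT_5d was 1.68 times the mean floor of PPARγ/+_5d. This takes the WT_5d mean as free of error, and WT_5d replicate 3, with 1 fragment, lay under that floor itself. *Myf6* passed the filter on low values through WT libraries alone, so that no test between the cell types is read for it. On 0d there were 14 fragments in WT cells against 4 in PPARγ/+ cells, a ratio of 3.73 that is likewise not read as a difference. Of the 14, 9 were in WT_0d replicate 2, and without that library the ratio was 2.12. In WT cells the ratio of 5d to 0d was 1.22 (exact 95% interval 0.565 to 2.67, covering counting error only). A change of *Myf6* with differentiation in WT cells was thus not detectable at this depth.

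Counted together, 3 of the 4 factors were called between the days in WT cells (*Myf5* lower, *Myod1* and *Myog* higher), where 16.5% of all genes were called, 8.94% higher and 7.53% lower. In PPARγ/+ cells 2 were called (*Myod1* and *Myog*, both higher), where 15.2% of all genes were, 9.11% higher and 6.06% lower. On 5d none of the 4 was called between the cell types, where 0.155% of all genes (28) were, 0.0943% higher and 0.0610% lower in PPARγ/+ cells, and 2281 had an unadjusted limma p of at most 0.05 (*Myf5* and *Myog* among them). Without WT_5d replicate 3, 723 genes were called on 5d, 215 higher and 508 lower, against 17 higher and 11 lower with it. The groups did not overlap for 2 factors between the days in WT cells (51.1% of all genes), for 3 in PPARγ/+ cells (58.1%), and for 1 between the cell types on 0d (26.8%). On 5d the listed values of *Myf6* alone did not overlap (18.5% of all genes), within the floor given above. This is not read as a difference, since *Myf6* passed the filter through WT libraries alone. Each WT group enters 2 of these comparisons, so they are not independent of each other.

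The make-up of the family turned over with differentiation in both cell types. Its summed level was 27.4, 50.6 and 19.7 FPKM in WT_0d, 312, 259.9 and 114 in WT_5d, 10.6, 10.5 and 16.9 in PPARγ/+_0d, and 104, 114 and 119 in PPARγ/+_5d. *Myog* made up 7.47 to 31.0% of the sum in WT_0d and 5.71 to 19% in PPARγ/+_0d, against 79.2 to 86.8% in WT_5d and 75.1 to 75.8% in PPARγ/+_5d. *Myf5* made up 26.0 to 58.7% in WT_0d and 23.4 to 40.5% in PPARγ/+_0d, but 1.36 to 3.34% in WT_5d and 5.36 to 7.11% in PPARγ/+_5d. By mean level the order was *Myod1*, *Myf5*, *Myog*, *Myf6* on 0d and *Myog*, *Myod1*, *Myf5*, *Myf6* on 5d in both cell types. In WT_0d the ranges of *Myod1* and *Myf5* overlapped, as did those of *Myf5* and *Myog*, so that part of the order is within the spread. In the other 3 groups no neighbours in the order overlapped.

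**Figure D3:**
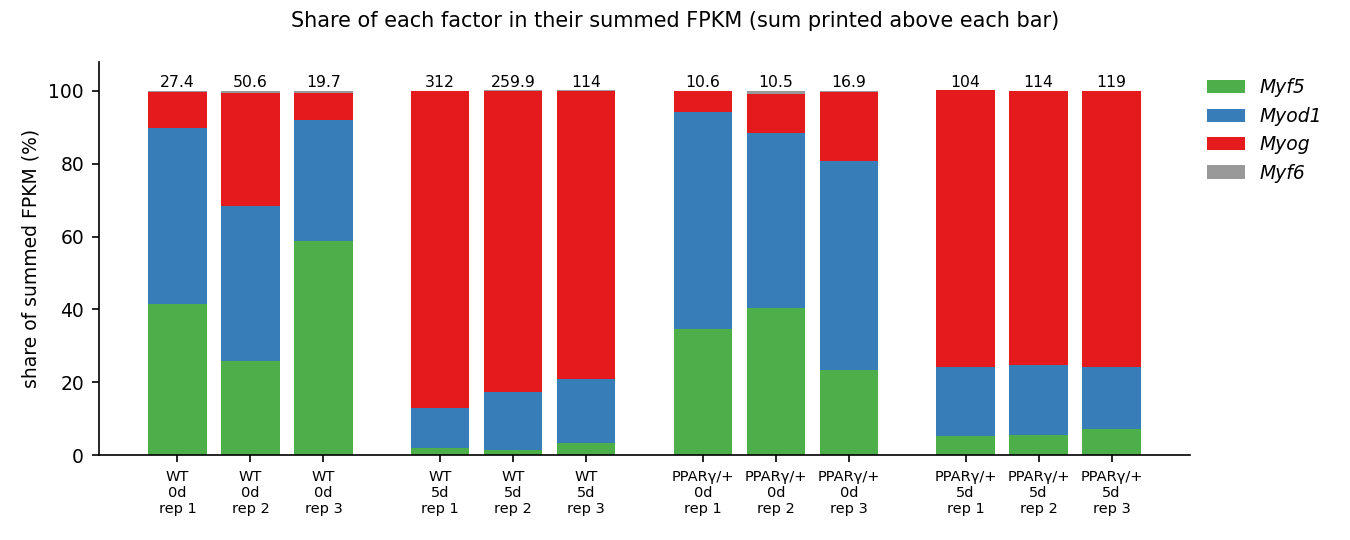
Share (%) of each factor in the summed FPKM of the 4, one bar per library, with the sum printed above it. *Myog* filled 75.1% or more of each 5d bar and at most 31.0% of each 0d bar, and the WT_5d bars held 1.36 to 3.34% of *Myf5* against 5.36 to 7.11% in PPARγ/+_5d.

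The ratio of one factor to another in the same library does not depend on the library's total. *Myf5* to *Myod1* was 0.855, 0.612 and 1.76 in WT_0d and 0.171, 0.0851 and 0.191 in WT_5d. The same ratio was 0.581, 0.846 and 0.409 in PPARγ/+_0d and 0.284, 0.283 and 0.415 in PPARγ/+_5d. It was thus lower in all WT_5d libraries than in any other library, while in PPARγ/+ cells the days overlapped. *Myog* to *Myod1* lay at 0.0957 to 0.731 on 0d and at 3.88 to 7.77 on 5d.

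The lists of partners and upstream regulators of the factors were short, so no difference of their shares called from those of all genes is read. Between the days, 16.5% of all genes were called in WT cells and 15.2% in PPARγ/+ cells. Of 3 E proteins, none was called in any comparison, although *Tcf3*, which encodes the E12 and E47 proteins, was lower on 5d in WT cells by 0.85 (log2, SE 0.08) and in PPARγ/+ cells by 0.45 (SE 0.06), both under 2-fold. Of 13 tested MEF2 factors and coactivators, 1 (7.69%) was called between the days in each cell type. This was *Mef2c*, a partner of the myogenic factors on muscle promoters, at 0.131, 0.265 and 0.0742 FPKM in WT_0d and 3.5, 2.23 and 0.212 in WT_5d (log2 change 2.49, SE 0.91, limma adjusted p = 0.0747). The lowest of these WT_5d values was that of replicate 3, and the change was 3.57 without it. The call was kept in 9 of 17 alternatives and was lost when any of the other 5 WT libraries was left out (1.80 to 2.78). In PPARγ/+ cells *Mef2c* went from a mean of 0.0341 to 0.219 FPKM (1.26, SE 0.23, limma adjusted p = 0.00451). Of 11 tested upstream activators, 3 (27.3%) were called higher and 0 lower on 5d for WT, where 8.94% of all genes were called higher and 7.53% lower. For PPARγ/+, 2 (18.2%) of these activators were called higher and 0 lower, where 9.11% and 6.06% of all genes were. None was called between the cell types with all libraries, where 1.59% of all genes were on 0d and 0.155% on 5d. Without WT_5d replicate 3, 3 were called on 5d, where 723 of 18023 genes were. *Rbm24*, an RNA-binding protein of muscle, rose by 4.64 (SE 0.61) in WT cells and 3.73 (SE 0.23) in PPARγ/+ cells. *Tead4*, a transcription factor of the Hippo pathway, rose by 1.27 (SE 0.39) in WT cells, where replicate 3 (5.41 FPKM) was far below the others (16.1 and 13.4). Its call was lost without WT_0d replicate 1, WT_5d replicate 1 or WT_5d replicate 2. *Six5* rose by 1.01 (SE 0.17) in WT cells and by 1.12 (SE 0.08) in PPARγ/+ cells.

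**Figure D4:**
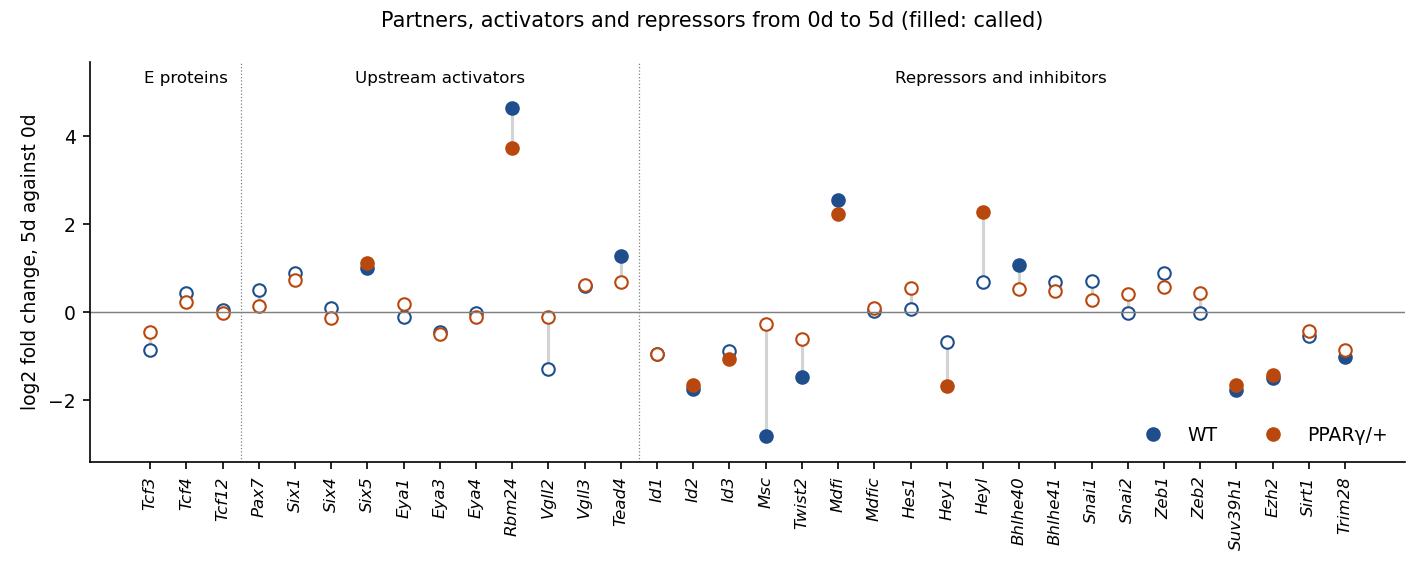
Log2 fold change from 0d to 5d (vertical axis) of the tested E proteins, upstream activators and repressors, one position per gene, in WT (blue) and PPARγ/+ cells (orange), filled where called and joined by a grey line per gene. *Msc* shows the widest gap among the repressors, at -2.82 in WT and -0.26 in PPARγ/+ cells.

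Among 20 tested repressors and inhibitors of the factors, 6 fell and 2 rose in WT cells and 5 fell and 2 rose in PPARγ/+ cells, with medians of -0.28 and -0.08 against -0.08 and -0.10 over all genes. *Suv39h1*, a histone methyltransferase, fell by 1.78 (SE 0.12) in WT cells and by 1.66 (SE 0.13) in PPARγ/+ cells. *Mdfi*, an inhibitor that binds the myogenic factors, rose by 2.54 (SE 0.37) and 2.24 (SE 0.22). *Bhlhe40* rose by 1.08 (SE 0.11) in WT cells, and *Hey1*, a Notch effector, fell by 1.68 (SE 0.30) in PPARγ/+ cells. *Msc* (musculin), a helix-loop-helix repressor, was the repressor called in the interaction. It measured 2.79, 2.16 and 1.26 FPKM in WT_0d and 0.262, 0.244 and 0.103 in WT_5d. In PPARγ/+_0d it was 0.708, 0.678 and 1.55 FPKM, and in PPARγ/+_5d 0.663, 0.712 and 0.867. It fell by 2.82 in WT cells (SE 0.37, limma adjusted p = 0.00214), the change in PPARγ/+ cells was -0.26 (SE 0.31, limma adjusted p = 0.524), and the difference was 2.55 (SE 0.50, limma adjusted p = 0.0498). That last call sat at the threshold and was kept in 5 of 22 alternatives, with adjusted p from 0.0102 to 0.143.

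On 0d, 3 repressors were called between the cell types, 1 higher and 2 lower in PPARγ/+ cells. Of all genes, 0.361% were called higher and 1.23% lower there. *Id3*, which sequesters E proteins, measured 68.3, 65.0 and 62.4 FPKM in WT_0d and 131, 143 and 128 in PPARγ/+_0d, a difference of 1.04 (SE 0.07, limma adjusted p = 0.00497). *Hes1*, a Notch effector, measured 11.3, 13.3 and 10.6 FPKM in WT_0d and 5.11, 6.29 and 5.37 in PPARγ/+_0d, a difference of -1.05 (SE 0.12, limma adjusted p = 0.0161). *Heyl*, the other Notch effector called, was at 0.459 and 0.0315 FPKM (-2.03, SE 0.30, limma adjusted p = 0.0267). The count was 1 or 2 when any 1 library was left out, and 0 to 3 over all 16 alternatives. The call was kept in 12 of 16 alternatives for *Id3* and in 10 of 16 for *Hes1*. On 5d no repressor was called, beside 0.155% of the genes tested. Without WT_5d replicate 3, 3 repressors were called, beside 723 of the 18023 genes tested.

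Target genes of the factors moved with *Myog*. Of 45 tested, 37 rose and 0 fell from 0d to 5d in WT cells, and 40 rose and 0 fell in PPARγ/+ cells, with medians of 5.51 and 4.52 against -0.08 and -0.10 over all genes. Of all genes, 8.94% were called higher and 7.53% lower in WT cells, and 9.11% higher and 6.06% lower in PPARγ/+ cells. The marker lists below are to be read beside the same shares. The embryonic myosin *Myh3* rose by 7.34 (SE 1.13) in WT cells and by 7.12 (SE 0.36) in PPARγ/+ cells. The fast myosin *Myh4* rose by 7.65 (SE 0.67) in WT cells and the troponin *Tnni2* by 7.11 (SE 0.28) in PPARγ/+ cells. All 12 proliferation markers fell in both cell types, *Ccnb1* by 3.98 and 3.96 and *Plk1* by 3.86 and 3.87, and none was called between the cell types on either day. *Pcna* came nearest, lower by 0.75 in PPARγ/+ cells on 0d (SE 0.14, limma adjusted p = 0.0476) but under 2-fold. Among 9 tested fibroblast and tendon markers 7 rose and 1 fell in both cell types, with a summed level of 213 to 344 FPKM on 0d and 942 to 1522 on 5d. Among 15 adipocyte markers 11 were tested, and 1 rose in WT cells and 7 in PPARγ/+ cells. Between the cell types 3 were called higher in PPARγ/+ cells on 0d and 2 on 5d, *Adipoq* (adiponectin) and *Fabp4*, a fatty acid carrier, on both days. These 2 reached at most 0.0313 and 0.0481 FPKM in WT libraries and passed the filter through PPARγ/+ libraries alone. No test between the cell types is therefore read for them. In PPARγ/+_5d *Adipoq* measured 8.03, 12.7 and 40.5 FPKM and *Fabp4* 4.13, 4.86 and 10.3. Leaving out single libraries gave 1 to 3 calls on 0d and 0 to 7 on 5d, with 7 without WT_5d replicate 3. With all libraries, 0.361% of all genes were called higher and 1.23% lower in PPARγ/+ cells on 0d. On 5d these shares were 0.0943% and 0.0610%. Of 12 myoblast and myotube markers, some of which are also in the target list, 9 rose in WT cells and 11 in PPARγ/+ cells, and 2 were lower in PPARγ/+ cells on 0d. Of 3 tested endothelial and blood markers 1 rose and 1 fell in WT cells and 1 rose in PPARγ/+ cells, with 1.92 to 5.08 FPKM over the 10 listed. Their part in the levels of the factors was not tested.

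Between the cell types, 5 of the 45 target genes (11.1%) were lower in PPARγ/+ cells on 0d, where 1.23% of all genes were. The number higher was 0 (0.361% of all genes), and the median was -0.94 against 0.02 over all genes. The 5 lower genes were the acetylcholine receptor subunits *Chrnd* (-3.69, SE 0.46) and *Chrnb1* (-1.59, SE 0.20), *Cdh15* (-2.15, SE 0.33), *Des* (-1.41, SE 0.21) and the troponin *Tnnt2* (-2.03, SE 0.31). *Chrnd* measured 6.16, 11.8 and 4.52 FPKM in WT_0d and 0.374, 0.280 and 0.794 in PPARγ/+_0d. Leaving out any 1 library left 0 or 1 of these calls, with 1 left without WT_0d replicate 2 and 1 without WT_0d replicate 3. In the interaction 0 of the 45 were called, where 0.760% of all genes were. With both WT_0d replicate 2 and WT_5d replicate 3 left out 15 of the 45 were called, where 488 of 18023 genes were. On 5d none of the 45 was called (0.155% of all genes), at a median of -1.23 against 0.02 over all genes. Without WT_5d replicate 3, 40 of the 45 were called on 5d, where 723 of 18023 genes were. With limma's array weights 26 of the 45 were, where 502 of 18023 genes were. WT_5d replicate 3 was the lowest of its group for 44 of these same genes, and WT_0d replicate 2 the highest for 42. Counts without these libraries therefore carry no separate evidence on the target genes.

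**Figure D5:**
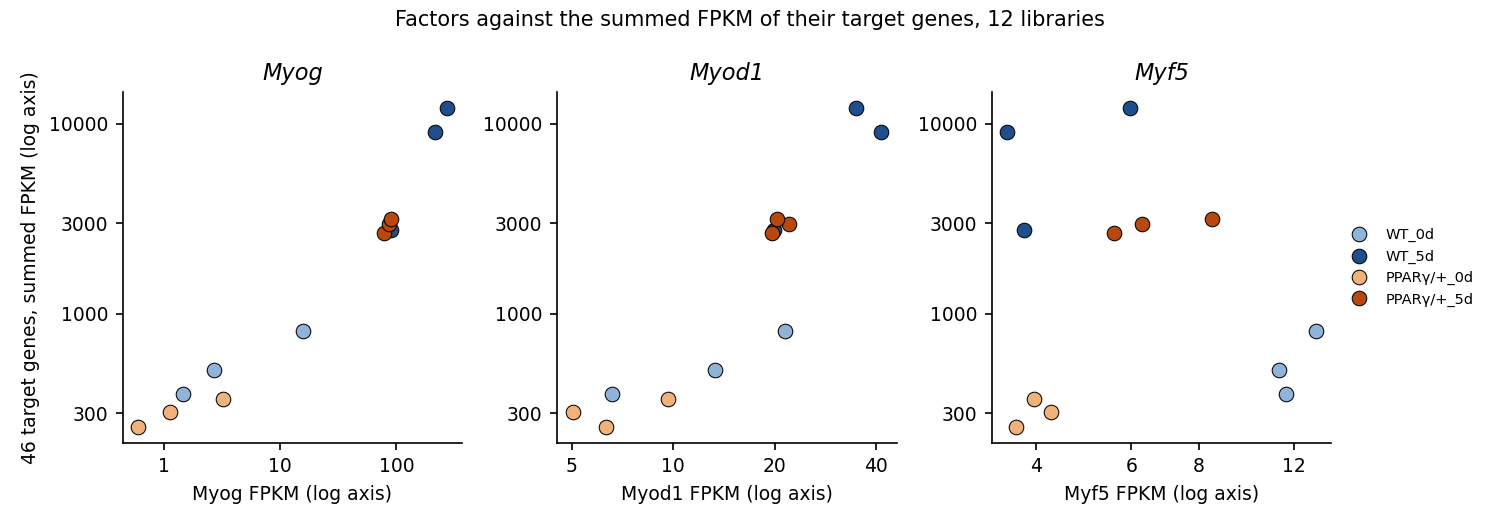
Level of *Myog*, *Myod1* and *Myf5* (horizontal, FPKM) against the summed FPKM of 46 target genes (vertical) in the 12 libraries, both on log axes and coloured by group. WT_5d replicate 3, at 90.0 FPKM of *Myog* and 2745 FPKM of target genes, sits among the PPARγ/+_5d libraries (78.8 to 90.3 and 2673 to 3150.3), and the *Myf5* panel shows no common trend.

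Within each group the libraries stood in the same order by target genes as by *Myog*. Summed over 46 targets it was 507, 814 and 380.2 FPKM in WT_0d, 12075, 9055 and 2745 in WT_5d, 255, 307 and 356 in PPARγ/+_0d, and 2673, 2978 and 3150.3 in PPARγ/+_5d.

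Genes whose pattern was most like each member were taken by Pearson's r of log2(FPKM + 0.1) over the 12 libraries, among 11680 genes with a mean of at least 1 FPKM. The libraries fall into 4 groups, so r describes mostly the group means and carries no test. *Myog* was followed most closely by *Mylpf*, *Ryr1* and *Tnni1* (r = 0.995 each), *Mymk* and *Mybph* (0.993 each), genes of the contractile apparatus, of calcium release and of myoblast fusion. *Myod1* was nearest to *Cacng1* (0.973), the RNA *H19* (0.970), *6430548M08Rik* (0.963), *Chrna1* (0.961) and *Lama2* (0.960). Without WT_0d replicate 3, 0 of these 5 remained among its 5 nearest, and without PPARγ/+_0d replicate 2 there were 2, against 3 to 5 without any other library. *Myf5* was nearest to *Rem1* (0.957), *Ptger4* (0.940), *Paqr8* (0.903), *Gsta2* (0.890) and *Nop10* (0.887). Of these 5, 2 remained among its 5 nearest without WT_5d replicate 2, and 3 or 4 without any other library. *Rem1* measured 9.54, 10.4 and 12 FPKM in WT_0d and 7.19, 6.06 and 5.54 in WT_5d. It was at 4.79, 5.83 and 6.14 FPKM in PPARγ/+_0d and 6.71, 7.10 and 8.91 in PPARγ/+_5d. For *Myf6* the nearest were *Fmnl3* (0.930), *Top1* (0.923), *Map4* (0.907), *Dgkz* (0.898) and *Eif4e2* (0.897), which rests on 0 to 10 fragments of *Myf6* per library. Of these 5, 2 to 4 remained when any 1 library was left out. Within the family r was 0.94 for *Myod1* and *Myog*, 0.02 for *Myod1* and *Myf5*, -0.10 for *Myog* and *Myf5*, and 0.23 for the neighbours *Myf5* and *Myf6*.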

How the data were processed

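RNA of C2C12 cells from 4 groups of 3 libraries was made into sequencing libraries with a TruSeq kit. Trim Galore, STAR and HTSeq were used by the authors to trim, align and count, and they deposited FPKM per gene and library. Their methods name GRCm38, whereas the submitters' processing notes name mm9 beside STAR. Coordinates here are those of GRCm38 (GENCODE), matched by Ensembl identifier. The strand setting of the counting is not given in the sources used here. A second table deposited by the authors, the log2 of FPKM plus 1, differed from this by at most 5.3e-14 and served only for that check. No library column was left unused (0), and no 2 libraries were identical.

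Fragments were recovered as FPKM times exonic length times a depth estimated from the steps of low values. Of values under 100 fragments, 83.5 to 84.3% came out whole within 0.01 with annotated lengths. The lengths of *Myod1* and *Myf6* were inferred from their steps. Counts of 3 fragments were the floor, and intervals at 95% cover counting error only.

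limma 3.58.1 (empirical Bayes with trend, R 4.3.3) was run on log2(FPKM + 0.1) of the 18023 genes with at least 0.1 FPKM in at least 3 libraries, which understates changes of low genes. The 5d and 0d libraries of a cell type were compared on their own 6 libraries and called at an unadjusted p of at most 0.05 and a 2-fold change, as in the study's methods. PPARγ/+ and WT cells were compared on each day at a Benjamini-Hochberg adjusted p of at most 0.05 and a 2-fold change, and the interaction, the PPARγ/+ change minus the WT change, was fitted over 12 libraries at an adjusted p of at most 0.05. Adjusted p-values are over all genes tested. The fits were tested on simulated data. Python 3.11.15, numpy 2.4.6, pandas 2.3.3, scipy 1.17.1 and matplotlib 3.10.9 were used.

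The members and the gene lists were chosen with earlier results of these data known, the lists from textbook knowledge. Named are the members, *Pparg*, from each list and comparison at most the 2 called genes with the largest rise and the 2 with the largest fall, given 1 FPKM or more as the mean of the higher group, list genes called in the interaction, the 5 nearest patterns of each member, and *Des* and *Cdh15*. *Tcf3*, *Mef2c* in PPARγ/+ cells, *Lep*, *Heyl*, *Chrnb1*, *Tnnt2*, *Pcna* and *Six5* in WT cells were named after their values were seen. The study calls the replicates biological, without saying whether they were separate cultures or clones, so p-values measure the spread between these libraries. Same-numbered libraries of different groups did not deviate together (r from -0.07 to 0.08 over 18 pairs), so numbers were not used to pair libraries. The processing was varied by a pseudocount of 1 or 0.01, no filter or one at 1 FPKM, median-ratio scaling, quantile normalization, array weights, a replicate block, all 12 libraries in one fit, an adjusted p in the call and each library left out. limma-voom on recovered fragments and leaving out 2 libraries together were added after seeing the data, as was the *Myf6* ratio without 1 library. The MEF2 core searched was shortened from a longer motif after that motif's match in *Myog* had been seen.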

Additional observations from a re-analysis of the deposited data

Results flagged for a closer look

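*Myf5* differed in its change from 0d to 5d between the cell types. Subtracting the WT change from the PPARγ/+ change gave 2.20 on the log2 scale (limma adjusted p = 0.00844), with means of 12 and 4.43 FPKM in WT cells and 3.96 and 6.78 in PPARγ/+ cells on 0d and 5d. All 3 WT_5d libraries were below the WT_0d libraries and all 3 PPARγ/+_5d libraries above the PPARγ/+_0d libraries.

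The repressor *Msc* differed in the same test by 2.55 (limma adjusted p = 0.0498), with means of 2.07 and 0.203 FPKM in WT cells and 0.978 and 0.747 in PPARγ/+ cells. This call was kept in 5 of 22 alternatives (limma adjusted p from 0.0102 to 0.143). The WT_5d values, 0.103 to 0.262 FPKM, lay near the 0.1 FPKM added before taking logs.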

How the results depend on the processing

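*Myf5* was called in all 18 alternatives between the days in WT cells (-1.69 to -1.29) and in all 22 of the interaction, and *Myog* was called between the days in all 18 for WT cells (4.71 to 6.85) and all 17 for PPARγ/+ cells (5.14 to 6.51). *Myod1* between the days was called in 17 of 17 in PPARγ/+ cells and in 12 of 18 in WT cells, where it kept its direction but missed the threshold with no filter (1.31) and with an adjusted p in the call (1.31). Leaving out single libraries gave 0.86 to 1.70, of which the lost calls spanned 0.86 to 1.36. On 5d, *Myf6* (which entered the test through WT libraries alone) passed it with array weights (-1.71) and *Myog* too (-1.27), with ranges of -1.93 to -1.12 and -1.51 to -0.71 when single libraries were left out, the lowest of each without WT_5d replicate 3. The sign turned for *Myf6* in WT cells (-0.16 to 0.65 with single libraries left out) and, in the interaction, for *Myod1* (-0.25 with array weights, -0.10 to 0.75 with single libraries left out, -0.41 with both WT_0d replicate 2 and WT_5d replicate 3 left out) and *Myog* (-0.12, -0.47 to 1.19 and -0.94), none of which was called in any of these. The cause was not tested. A filter at 1 FPKM left no value for *Myf6*.

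The replicate block lost the *Myf5* call on 0d (-1.58, adjusted p = 0.0878), as it did every call between the cell types, with 0 genes called on 0d (2755 at an unadjusted p of at most 0.05) and 0 on 5d (2001), and it left 61 in the interaction. It changed no other call of a member. Of 12 libraries 1 correlated best with its own number.

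Counts of genes called moved by over 1.5 times from 2970 to 1441 with a pseudocount of 1 in WT cells, and from 2735 to 1241 with it and 1806 with a filter at 1 FPKM in PPARγ/+ cells. On 0d, 287 became 115 with a pseudocount of 1, 107 with no filter, 473 with voom and 55 to 137 with single libraries left out. On 5d, 28 became 8 and 71 with a pseudocount of 1 and 0.01, 502 with array weights, 199 with all libraries in one fit and 1 to 723 with single libraries left out, 723 without WT_5d replicate 3. In the interaction, 137 became 2070 with array weights, 88 with voom, 42 to 527 with single libraries left out and 488 without both. Voom called 3377 and 3319 genes between the days and 40 between the cell types on 5d. Median-ratio scaling moved the median of all genes between the days from -0.08 and -0.10 to 0.02 and changed no call of a member.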
